A study of Mus musculus with 17 samples.

Results

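Liver RNA of 6 adult male mice labelled as Afp knockouts (AFP1 KO), 17 weeks old, was compared with liver RNA of wild-type males on 2-colour cDNA arrays. These arrays were all 11 adult samples among the 17 samples of the series, and the other samples, of embryos, were not used. On each array the cDNA of 1 mutant animal was hybridised together with cDNA of the same wild-type pool, made from 6 control males of 17 weeks. In 5 animals (1, 2, 3, 4 and 6) the pair was hybridised in both dye orientations, with the mutant in Cy5 on 1 array and in Cy3 on the other, whereas animal 5 had an array with the mutant in Cy5 alone. The labels give neither the strain nor which part of the gene was deleted. No wild-type animal was hybridised on its own, so the spread among wild-type animals is not in any test below, and a peculiarity of the pool cannot be told apart from one shared by the mutants.

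Alpha-fetoprotein (Afp) is the main plasma protein of the fetal liver and yolk sac and belongs to the albumin gene family. Its transcription is largely shut off after birth, while albumin is made at a high rate throughout adult life, so an adult Afp mutant lacks a gene that its hepatocytes scarcely use. The adult hepatocyte is known for the secretion of plasma proteins, for the degradation of amino acids and formation of urea, for the oxidation and conjugation of foreign compounds by cytochrome P450 and partner enzymes, and for the acute phase response, in which inflammatory cytokines raise serum amyloid A, haptoglobin and fibrinogen.

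Each array gave values for 20078 to 20577 of the 20794 rows of the table. The values were taken as log2 ratios, a base inferred from their size, so that each unit is a doubling; 0 means equal signal of mutant and pool. They were read as mutant over pool on all arrays. This direction is not stated in the sources used here. In the columns with the mutant in Cy5, 8.77 to 11.3% of values ended in a zero, and in those with the mutant in Cy3 at most 0.0729%. Values beyond 10 in size were all positive in the former (19 to 46 an array) and all negative in the latter (12 to 35). It is as if the Cy3 columns had been multiplied by -1 before deposit. These values bear on whether both orientations share 1 direction. They cannot tell mutant over pool from pool over mutant. Array medians lay between -0.105 and 0.085, and the interquartile range ran from 0.411 on the Cy5 array of animal 1 to 0.910. A feature was a gene (the mean of its probes) or an unnamed probe. Over features, arrays of different animals in the same orientation correlated at a median Spearman coefficient of 0.28 (Cy5, 15 pairs) and 0.34 (Cy3, 10 pairs). The 2 arrays of an animal correlated at -0.28, as did arrays of different animals in opposite orientation, at -0.26. Ratios carry no level, so markers cannot show here that the tissue was liver.

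Afp itself was near 0. The mean of its 3 probes was -0.24 on the Cy5 array and 0.06 on the Cy3 array of animal 1, -0.13 and 0.01 in animal 2, -0.34 and 0.05 in animal 3, -0.10 and 0.09 in animal 4, -0.19 in animal 5 (Cy5 alone), and 0.34 on both arrays of animal 6. The Cy5 arrays lay below 0 in 5 of 6 animals and the Cy3 arrays above 0 in all 5, and animal 6 stood above the others. The animals averaged -0.03 ± 0.19 (SD, n = 6), with an adjusted p of 0.944 (limma against 0, Benjamini-Hochberg adjustment over all features). Its probes differed, with means of 0.19 ± 0.17, -0.12 ± 0.38 and -0.14 ± 0.36 (SD, n = 6). No source used here says where these probes lie relative to the deletion, so this ratio does not check the genotype.

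Albumin (Alb), the chief protein of adult plasma, had a mean log2 ratio of -0.59 ± 0.57 (SD, n = 6) and an adjusted p of 0.639 in limma. Its arrays read 0.06 (Cy5) and -0.41 (Cy3) in animal 1, 0.35 and -0.48 in animal 2, -0.44 and -1.07 in animal 3, -1.29 and -1.61 in animal 4, -0.07 in animal 5 and -0.94 and -1.06 in animal 6. All 5 Cy3 arrays lay below 0, and 4 of the 6 Cy5 arrays did. Animals 3, 4 and 6 were low in both orientations, whereas in animals 1 and 2 the orientations differed in sign. Its mean was 0.19 with the Cy3 arrays turned in sign. Afamin (Afm), the vitamin E-binding relative of Afp, averaged -0.17 ± 0.24 (SD, n = 6). Its Cy5 arrays reached -0.98 in animal 3 and its Cy3 arrays 0.24 in animal 6.

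Across the transcriptome no feature was called. In limma, 0 of 17039 features (0%) differed from 0 at an adjusted p under 0.05. The smallest adjusted p was 0.639, and at an unadjusted p under 0.05 there were 745 lower features (4.37%) and 576 higher ones (3.38%). Among 16455 features with a value in all 6 animals, 462 were below 0 and 574 above 0 in every animal. In simulated data with the spread of these arrays, the test recovered 65.0% of features shifted by 1 log2 unit and 97.5% of those shifted by 2. It made 3 and 16 false calls. The simulated noise was normal and independent between features, without shifts shared by many genes of an animal, so these shares are only a guide. With the Cy3 arrays turned in sign, as if both orientations did not share 1 direction, 1764 features passed, 1604 of them higher. With the Cy5 arrays alone, 1106 features passed (994 higher), and with the Cy3 arrays alone 699 passed (684 lower). The calls of either orientation by itself thus leaned to opposite sides.

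Few named genes kept 1 sign through both orientations. Of 8299 named genes with a value on all 11 arrays, 17 lay below 0 on all 11 (0.205%) and 1 lay above 0 on all 11 (0.012%). The first of these was Tat, tyrosine aminotransferase, the glucocorticoid-responsive first enzyme of tyrosine breakdown. Animals 1 to 6 had Tat values of -0.39, -1.06, -1.18, -0.37, -1.47 and -0.88, a mean of -0.89 ± 0.44 (SD, n = 6). The arrays of animals 2, 3 and 4 differed between orientations by less than the animals did, while in animal 6 the Cy5 array read -1.37 and the Cy3 array -0.40. Oat, ornithine aminotransferase, which links ornithine to proline and glutamate, averaged -0.54 ± 0.28 (SD, n = 6) with arrays from -1.03 to -0.10. Glul, glutamine synthetase, the ammonia-scavenging enzyme of the hepatocytes around the central vein, averaged -0.24 ± 0.15 (SD, n = 6) with arrays from -0.62 to -0.04. Slc6a19, a transporter of neutral amino acids, averaged -0.50 ± 0.31 (SD, n = 6) with arrays from -1.18 to -0.06. These 4 genes handle amino acids; they were brought together after their values were seen.

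The other members of that group had different roles. Vmp1, an endoplasmic reticulum membrane protein needed for autophagy, averaged -0.74 ± 0.21 (SD, n = 6), with arrays from -1.27 to -0.23. Alcam, a cell adhesion molecule, averaged -0.53 ± 0.15 (SD, n = 6), although its arrays ran from -1.31 to -0.07. Arpc1a, a subunit of the actin-nucleating Arp2/3 complex, averaged -0.75 ± 0.38, and Errfi1, a feedback inhibitor of the epidermal growth factor receptor, -0.53 ± 0.24 (SD, n = 6 for each). Chtop, a factor of mRNA export, averaged -0.71 ± 0.42, a value to which animal 5 added -1.56, on its single Cy5 array, against -0.65 to -0.48 in the others. Rbpms2 and Gigyf1, both RNA-related regulators, averaged -0.41 ± 0.18 and -0.38 ± 0.17 (SD, n = 6 for each). The remaining genes below 0 on all 11 arrays were Slco1a6, Tbx1, Sh3bp2, Wdr45b, Plagl2 and Cdc14b. Atp8b5, a member of the phospholipid-flippase family, was the gene above 0 throughout, at 0.28 ± 0.12 (SD, n = 6), with arrays from 0.02 to 0.64.

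None of these genes passed with both orientations in the fit. With the Cy5 arrays alone, Tat, Arpc1a, Vmp1, Errfi1 and Rbpms2 passed, with limma adjusted p-values from 0.0299 to 0.0437. In that fit 1106 of 16896 features passed, 112 of them lower. The genes had been chosen for their sign on these same arrays, so their passing is not independent evidence of a difference. With the Cy3 arrays alone, none of the 10 lowest genes passed, nor did Atp8b5. For the other 7 genes the fits by orientation are not reported here. The 5 smallest p-values of named genes belonged to Vmp1, Tat and Alcam and to a pair of genes with higher values. Psmd14, the deubiquitinase of the proteasome lid, averaged 1.26 ± 0.30 (SD, n = 5 animals), but its Cy3 array was missing in 3 of these animals, and the 2 arrays of animal 6 read 0.04 and 2.61. Mccc1, a subunit of the leucine-degrading methylcrotonyl-CoA carboxylase, averaged 0.74 ± 0.33 (SD, n = 6), with 0.17 and 2.29 on the arrays of animal 1, and a mean of -0.16 with the Cy3 arrays turned in sign.

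**Figure D1:**
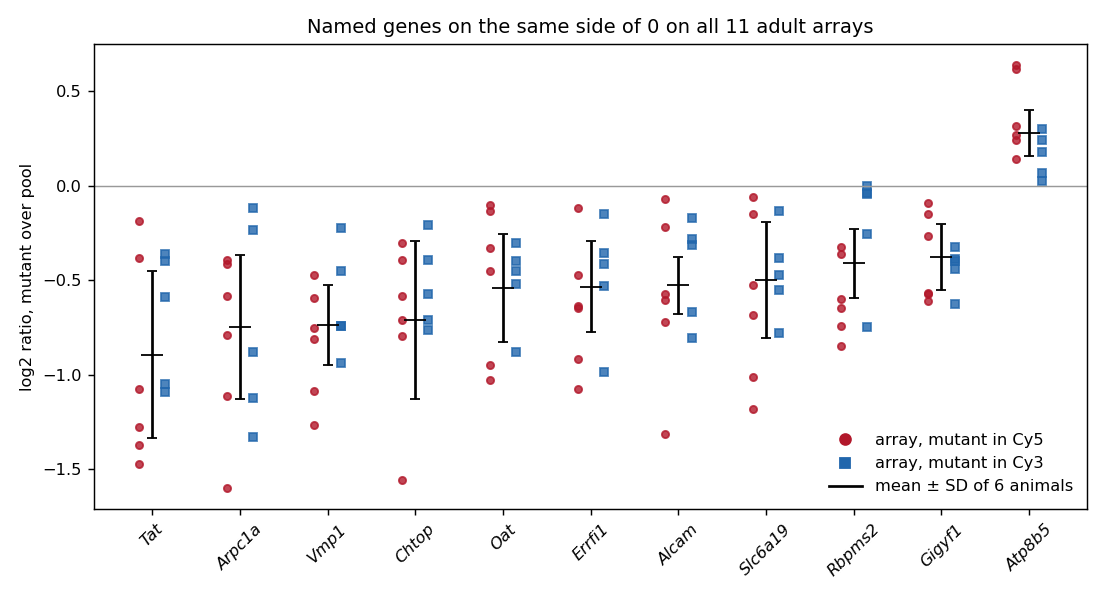
Log2 ratio of mutant over pool (vertical axis) on each of the 11 arrays for the 10 lowest genes below 0, and the gene above 0, on all of them. Circles are arrays with the mutant in Cy5, squares those with the mutant in Cy3, and black bars the mean ± SD of 6 animals; Tat averaged -0.89 and Atp8b5 0.28, and the arrays of a gene spread widely around its mean.

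Gene groups are described by counts and medians beside those of all features, of which 48.2% lay below 0 with a median of 0.01, and of all named genes, of which 51.1% did. No group had a member that passed the test. Hepatocyte plasma proteins, the carriers, clotting factors and apolipoproteins that the liver secretes, lay below 0 in 35 of 37 measured members (56 listed), with a median of -0.31. At an unadjusted p under 0.05, 10 of them (27.0%) were lower and 0 higher, beside the 4.37% of all features that were lower. The animals' medians were 0.16, -0.06, -0.63, -0.58, -0.24 and -0.60 for animals 1 to 6. Thus animals 3, 4 and 6 were clearly below 0, animal 5 less so, animal 2 was near 0 and animal 1 was above. Both orientations gave a median below 0, at -0.21 (Cy5) and -0.38 (Cy3), and 23 of 37 members (62.2%) lay below 0 in the means of both, beside 14.9% of all features. In animal 6, 30 of 37 members were below 0 on both arrays (81.1%), against 20.4% of named genes. In animal 1, 3 members were below and 13 above 0 on both, against 25.1% and 18.2% of named genes.

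The plasma proteins with the smallest p varied between animals and arrays. Apoe, the apolipoprotein of remnant lipoproteins, averaged -0.56 ± 0.30, with 0.38 and -0.39 on the arrays of animal 1 and -1.25 and -0.61 on those of animal 4. Rbp4, the retinol carrier, averaged -0.54 ± 0.32 and F2, prothrombin, -0.53 ± 0.32. Coagulation factor F5 averaged -0.37 ± 0.18 (SD, n = 6 for all of these). With the Cy3 arrays turned in sign the median of the plasma proteins was 0.00, whereas over the other 17 alternative settings it lay between -0.41 and -0.21.

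Enzymes of drug and steroid metabolism gave the lowest median among the gene groups. Cytochrome P450 and conjugation enzymes lay below 0 in 28 of 32 measured members (77 listed), with a median of -0.36, and 12 (37.5%) were lower at an unadjusted p under 0.05. Their medians in animals 1 to 6 were 0.04, -0.01, -0.51, -0.75, -0.36 and -0.41. Animal 4 was thus the lowest, and animals 1 and 2 lay at about 0. Gstm3, a glutathione transferase, averaged -0.56 ± 0.37, and Ces1f, a carboxylesterase, -0.46 ± 0.28. Cyp2d10 averaged -0.44 ± 0.27 and Ephx2, soluble epoxide hydrolase, -0.36 ± 0.23 (SD, n = 6 for all of these). In each of these 4 genes the Cy3 array of animal 2 or animal 3 lay well above the Cy5 array of the same animal. Turned in sign, the Cy3 arrays left a median of -0.07 for this group.

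Amino acid metabolism and the urea cycle lay below 0 in 33 of 41 measured members (67 listed), with a median of -0.20, 11 of them lower (26.8%) and 1 higher at an unadjusted p under 0.05. Arg1, the arginase that releases urea, averaged -0.64 ± 0.33 (SD, n = 6) and was above 0 only on the Cy5 array of animal 1, at 0.21. Asns, asparagine synthetase, averaged -0.95 ± 0.47 (SD, n = 5) and lay below 0 on each of its arrays, of which 3 were missing. The medians of this group on the 2 arrays of an animal were close: -0.34 and -0.23 in animal 3, -0.42 and -0.40 in animal 4, and -0.37 and -0.30 in animal 6. Hepatocyte markers, which share Alb, Tat and Arg1 with these groups, lay below 0 in 7 of 7 measured members (12 listed), with a median of -0.45, and in 7 of 7 in the means of both orientations. Turning the Cy3 arrays in sign gave medians of -0.03 for hepatocyte markers and -0.09 for amino acid metabolism. Whether these group medians reflect a difference between mutant and pool was not tested. In bulk RNA, a difference in the number of hepatocytes and one in these RNAs per hepatocyte could not be told apart.

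Housekeeping groups lay on the same side with smaller medians. The mitochondrial respiratory chain lay below 0 in 51 of 61 measured members, with a median of -0.16 and 15 members (24.6%) lower at an unadjusted p under 0.05. Uqcrc2, a core subunit of complex III, averaged -0.59 ± 0.48, Atp5c1, a subunit of ATP synthase, -0.50 ± 0.35, and Cox6c, of cytochrome oxidase, -0.46 ± 0.30 (SD, n = 6 for each). Animals 1 and 2 had medians of 0.09 and 0.02 for this group and animals 3, 4 and 6 medians of -0.37, -0.40 and -0.40. Cytosolic ribosomal proteins lay below 0 in 52 of 60 members, with a median of -0.16 and 8 (13.3%) lower at an unadjusted p under 0.05. In animal 4, 43 of the 60 ribosomal genes were below 0 on both arrays and 1 was above, beside 16.9% and 19.3% of all features. In animal 1, 26 were above and 6 below, beside 16.4% and 26.8% of all features. Rpl27a averaged -0.40 ± 0.29 and Rpl6 -0.23 ± 0.11 (SD, n = 6 for both). With the Cy3 arrays turned in sign the medians were -0.02 for the respiratory chain and 0.00 for ribosomal proteins; under the other 17 settings both stayed below -0.10.

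The proteasome lay below 0 in 31 of 40 members with a median of -0.18, but only 2 members (5.00%) were lower at an unadjusted p under 0.05, close to the share of all features; Psma1, of its core ring, averaged -0.67 ± 0.38 (SD, n = 6). Heat shock proteins and chaperones of the endoplasmic reticulum lay below 0 in 25 of 31 members, with a median of -0.17. Dnaja1 at -0.63 ± 0.64 rested largely on animal 5, at -1.87 on its single Cy5 array. Genes of oxidative stress and metal binding lay below 0 in 17 of 22, with a median of -0.17. Among them Sod1, superoxide dismutase, averaged -0.50 ± 0.38, and the ferritin chains Fth1 and Ftl1 averaged -0.40 ± 0.32 and -0.46 ± 0.45 (SD, n = 6 for each).

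Lipid, bile acid and sugar metabolism had medians from -0.15 to -0.06. At an unadjusted p under 0.05, 17.6% of bile acid genes, 16.1% of fatty acid oxidation genes and 12.9% of glucose and glycogen genes were lower. The share was 7.41% for fatty acid and triglyceride synthesis and 7.14% for cholesterol synthesis, beside 4.37% of all features. Fatty acid oxidation and ketone formation lay below 0 in 21 of 31 members (median -0.13), fatty acid and triglyceride synthesis in 19 of 27 (median -0.06), cholesterol synthesis in 11 of 14 (median -0.15), bile acid synthesis and transport in 12 of 17 (median -0.12), and glucose and glycogen metabolism in 19 of 31 (median -0.09). Slc27a2, a very-long-chain acyl-CoA synthetase, averaged -0.60 ± 0.61, with 0.71 and 0.32 on the arrays of animal 1 and -1.30 and -0.36 on those of animal 6. Acsm3, a medium-chain acyl-CoA synthetase, went the other way at 0.40 ± 0.39, and Slc27a5, which activates bile acids, at 0.28 ± 0.27. Cyp7b1, the oxysterol hydroxylase, averaged -0.41 ± 0.33, and Fbp1, the gluconeogenic fructose bisphosphatase, -0.47 ± 0.46. Gapdh, often used as a reference gene, averaged -0.51 ± 0.52 and followed the animals on both arrays: 0.33 and 0.38 in animal 1, -0.13 and -0.16 in animal 2, -0.82 and -0.79 in animal 3, -0.96 and -1.18 in animal 4, -0.64 in animal 5, and -0.997 and -0.51 in animal 6 (SD, n = 6 for all of these).

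Genes that differ between male and female liver lay on opposite sides, with few members measured. Male-biased genes lay below 0 in 8 of 12 measured members (28 listed) with a median of -0.34, and female-biased genes in 3 of 10 (34 listed) with a median of 0.15. At an unadjusted p under 0.05, 5 of the 12 male-biased genes were lower (41.7%) and 1 higher, beside 4.37% and 3.38% of all features. Of the 10 female-biased genes, 0 were lower and 0 higher. Serpina1e averaged -0.59 ± 0.34, Nudt7, a peroxisomal coenzyme A hydrolase, -0.61 ± 0.47, and Selenbp2, a selenium-binding protein, -0.83 ± 0.77, the last with -3.14 on the Cy5 array of animal 3. The highest of the female-biased genes named, Cyp17a1, the steroid 17-alpha-hydroxylase, averaged 0.39 ± 0.50, but its Cy5 arrays ran from 0.15 to 1.36 and its Cy3 arrays from -1.13 to 0.23 (SD, n = 6 for all of these). Turned Cy3 arrays gave medians of -0.08 for the male-biased and 0.04 for the female-biased genes. The difference between both lists was not tested.

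Several groups gave medians close to that of all features. Circadian clock genes lay below 0 in 8 of 17 members (median 0.02), immediate early and glucocorticoid-responsive genes in 13 of 25 (median 0.00), genes of estrogen and steroid hormone action in 12 of 22 (median -0.04), regulators of Afp and oncofetal genes in 15 of 28 (median 0.00), cell cycle genes in 16 of 36 (median 0.02) and interferon-responsive genes in 10 of 18 (median -0.03). Of the estrogen and steroid hormone genes, however, 5 of 22 (22.7%) were lower at an unadjusted p under 0.05, and 36.4% lay below 0 in the means of both orientations, beside 14.9% of all features. Single members lay further out. Pgrmc1, a heme-binding partner of P450 enzymes, averaged -0.59 ± 0.39, B2m, the light chain of MHC class I, -0.62 ± 0.53, and Fos -0.52 ± 0.42. Among transcription factors of the hepatocyte that act on Afp and Alb, Hnf4a averaged -0.29 ± 0.13 and Cebpa -0.38 ± 0.40 (SD, n = 6 for all of these), while Cebpd averaged 0.60 ± 0.46 (SD, n = 4), with arrays from -0.59 to 1.85. Gpc3, an oncofetal proteoglycan, averaged -0.81 ± 1.24 because of 1 array of animal 6, at -6.02.

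Markers of cells other than hepatocytes did not share a direction. Cholangiocyte markers lay below 0 in 4 of 10 measured members (median 0.07), Kupffer cell and macrophage markers in 3 of 9 (median 0.02), lymphocyte markers in 5 of 10 (median 0.01), granulocyte markers in 5 of 11 (median 0.04), and megakaryocyte markers in 1 of 6 (median 0.03). Endothelial markers lay below 0 in 7 of 11 (median -0.13), stellate cell and fibroblast markers in 9 of 12 (median -0.10) and erythroid markers in 7 of 9 (median -0.05). Markers of tissues that dissection could add had medians near 0 in the mean of both orientations: exocrine pancreas in 8 of 14 (median -0.03), fat in 5 of 9 (median -0.01), skeletal muscle in 6 of 12 (median 0.02), and gallbladder and gut epithelium in 4 of 5 (median -0.03). Cdh5, the cadherin of endothelial junctions, averaged -0.67 ± 0.30, and Fcgr2b, of sinusoidal endothelium, -0.46 ± 0.31 (SD, n = 6 for both). Other endothelial markers, 4 of 11, lay above 0, among them Emcn at 0.29 ± 0.52 (SD, n = 6). C1qb, a complement chain made by macrophages, averaged -0.33 with an SD of 0.07, yet its arrays ran from -0.96 to 0.23. In the same list 6 of 9 markers lay above 0, among them Cd5l at 0.24 ± 0.20 and Lyz2 at 0.42 ± 0.51 (SD, n = 6 for both). With the Cy3 arrays turned in sign the medians of cholangiocyte, Kupffer cell, endothelial, lymphocyte, granulocyte, erythroid and skeletal muscle markers lay on the other side of 0, the last at -0.20. Those of exocrine pancreas, gallbladder and gut, and fat moved to -0.20, -0.21 and -0.14, and that of megakaryocyte markers to 0.39. The pancreas median was -0.25 in the Cy5 means and 0.21 in the Cy3 means. The part of cell composition in the medians of the metabolic groups was not tested.

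**Figure D2:**
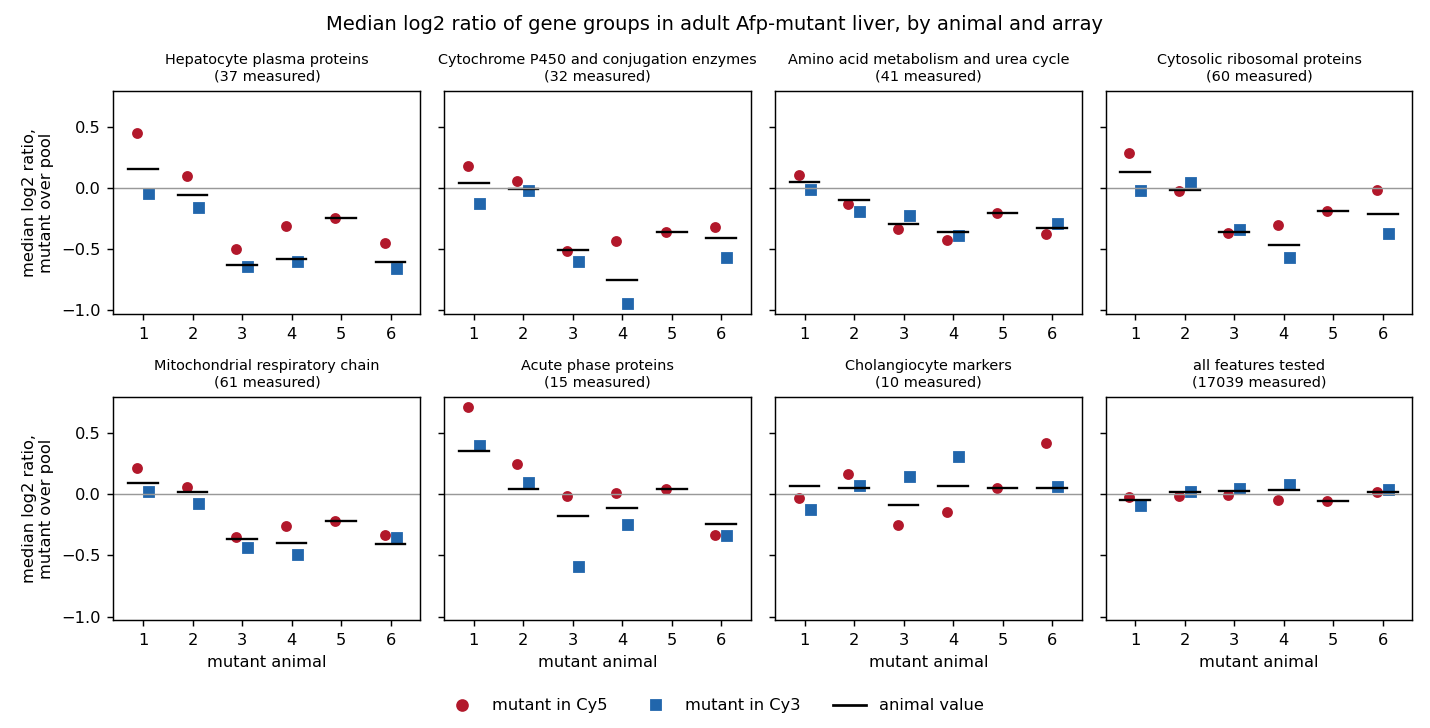
Median log2 ratio of mutant over pool (vertical axis) of 7 gene lists and of all features tested, for each of 6 animals (horizontal axis). Circles are arrays with the mutant in Cy5, squares those with the mutant in Cy3, and bars the median of the animal's averaged values; in the metabolic, ribosomal and mitochondrial groups animals 3, 4 and 6 lie below 0 on their arrays and animal 1 near or above it, while all features lie within 0.10 of 0.

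For single features, the moderated F-test of the animal term in limma, with dye orientation in the model, called 0 of 15687 features with values on all 10 paired arrays (0%); 495 had an unadjusted p under 0.05, and turning the Cy3 arrays gave 1 call and 990 such features. In simulated data, again with independent noise, this test recovered 56.5% of features in which 1 animal was shifted by 3 log2 units. Saa1 came first of all features, with an adjusted p of 0.240.

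Saa1 encodes serum amyloid A, a major acute phase protein of the mouse. Its arrays read 3.98 (Cy5) and 2.29 (Cy3) in animal 1, 1.31 and 0.47 in animal 2, -0.78 and -0.88 in animal 3, 1.55 and 0.66 in animal 4, -0.56 in animal 5 and -1.12 and -1.73 in animal 6. Animals 1, 2 and 4 were above the pool and animals 3, 5 and 6 below it, on every array. The mean over the animals, 0.38 ± 1.67 (SD, n = 6), describes none of them. Fga, the fibrinogen alpha chain, read 2.41 and 1.57 in animal 1, 0.71 and -0.55 in animal 2, 0.22 and -1.35 in animal 3, 0.34 and -1.62 in animal 4, 1.02 in animal 5 and 0.09 and -1.58 in animal 6. Animal 1 was the only animal above 0 in both orientations, and Fga also turned with the dye (adjusted p of 0.009 in limma for the dye orientation).

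Animal 1 carried the other fibrinogen chains and further acute phase genes in the same direction. Its Cy3 array resembled the other Cy3 arrays least, at Spearman coefficients of 0.01 to 0.09 over features. Those other Cy3 arrays correlated with each other at 0.27 to 0.60. Whether the values of animal 1 belong to the mouse or to its arrays was not tested. Fgb, the beta chain, read 0.95 and 0.42 in animal 1 and Fgg, the gamma chain, 0.87 and 0.66; the mean of Fgg in animals 3 to 6 lay between -0.88 and -0.34. Orm1, an orosomucoid, read 0.67 and 0.34, Itih4, an inter-alpha-trypsin inhibitor chain, 1.09 and 0.58, Saa4, a serum amyloid of the constitutive kind, 0.71 and 0.39, and Fgl1, a fibrinogen-like hepatokine, 1.12 and 1.43. Hp, haptoglobin, read 1.12 and 1.37 in animal 1, but 1 array of animal 4 held a value of -16.90, which sets its mean. Of 15 acute phase genes measured, 10 lay above 0 on both arrays of animal 1 and 2 below, whereas in animal 6, 3 lay above and 8 below. Of all named genes, 18.2% lay above 0 on both arrays of animal 1, as did 35.1% of hepatocyte plasma proteins and 43.3% of ribosomal proteins. On both arrays of animal 6, 20.4% of named genes lay below 0. The group's median was 0.35 in animal 1, 0.04 in animal 2, -0.18 in animal 3, -0.11 in animal 4, 0.05 in animal 5 and -0.24 in animal 6. Hamp, the iron hormone hepcidin, did not follow: it averaged -0.73 ± 0.58 (SD, n = 6) and read -0.22 and -0.47 in animal 1. Lbp, the lipopolysaccharide-binding protein, averaged 0.27 ± 0.24 (SD, n = 6) without singling out animal 1. Saa3, another serum amyloid, was highest in animal 5, at 2.54, with 1.38 in animal 1 and 1.33 in animal 6. Granulocyte markers had a median of -0.03 in animal 1 and Kupffer cell and macrophage markers one of -0.09.

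The 250 bases upstream of the start sites of Saa1 and of the 3 fibrinogen chains are shown because these 4 genes were above the pool on both arrays of animal 1; they were chosen after their values were seen. The sequences are from RefSeq, assembly GRCm38.p6, each 5′ to 3′ on the gene's own strand, and capitals mark matches on either strand to TTGCNNAA, a form of the C/EBP site, and to CTGGGAA, the core of the acute phase response element to which STAT3 binds. Saa1 lies at chr7:46742981-46743230 (minus strand), Fga at chr3:83025903-83026152 (plus), Fgb at chr3:83049864-83050113 (minus) and Fgg at chr3:83007474-83007723 (plus).
Saa1: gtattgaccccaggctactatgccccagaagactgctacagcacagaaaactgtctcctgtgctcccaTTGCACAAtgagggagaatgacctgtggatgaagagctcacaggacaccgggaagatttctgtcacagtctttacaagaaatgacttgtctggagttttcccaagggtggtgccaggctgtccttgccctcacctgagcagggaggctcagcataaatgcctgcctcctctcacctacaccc
Fga: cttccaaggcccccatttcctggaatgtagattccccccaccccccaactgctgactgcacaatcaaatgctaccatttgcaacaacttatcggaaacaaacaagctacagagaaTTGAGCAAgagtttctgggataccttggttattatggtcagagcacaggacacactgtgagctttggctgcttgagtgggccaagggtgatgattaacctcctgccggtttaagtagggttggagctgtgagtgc
Fgb: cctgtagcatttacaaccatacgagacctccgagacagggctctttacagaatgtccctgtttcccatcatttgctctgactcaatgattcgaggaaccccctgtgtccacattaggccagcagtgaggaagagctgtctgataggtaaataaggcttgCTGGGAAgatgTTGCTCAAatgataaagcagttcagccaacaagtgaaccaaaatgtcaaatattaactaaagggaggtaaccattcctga
Fgg: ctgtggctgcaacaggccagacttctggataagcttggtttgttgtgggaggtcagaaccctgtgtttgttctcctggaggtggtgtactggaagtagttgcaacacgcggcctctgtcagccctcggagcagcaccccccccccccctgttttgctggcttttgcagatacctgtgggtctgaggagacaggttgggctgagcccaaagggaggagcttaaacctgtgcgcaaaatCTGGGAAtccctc
The C/EBP form was found once each in Saa1, Fga and Fgb, and the CTGGGAA core once each in Fgb and Fgg; the matches do not overlap. Among 32851 promoter windows of this length, 9.56% held the former and 9.10% the latter, so a match is a description of these letters and not evidence of a site in use. Orm1 was not among the promoters matched.

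Other genes set single animals apart. Scd1, the stearoyl-CoA desaturase that makes monounsaturated fatty acids, read -2.08 and -2.12 in animal 4, 0.81 and 0.84 in animal 2, -0.58 and -0.78 in animal 3, -1.20 and -0.58 in animal 6, 0.60 and -0.22 in animal 1 and -0.41 in animal 5. In animals 2, 3 and 4 the 2 arrays lay close together while the animals lay far apart. Scd1 was among 10 genes picked for a wide spread between animals and a small discrepancy between an animal's arrays. For these genes that pattern was fixed by the choice and is not independent evidence that the animals differ. Cd4, the helper T cell coreceptor, read 2.76 and 1.92 in animal 1 and lay below 0 on all arrays of the other animals. Of the other T cell markers, Cd3e read 0.30 and 0.04 and Cd3g -0.22 and 0.51 in animal 1. Gpr19, an orphan receptor, read 3.58 and 2.57 in animal 3 and at most 0.72 in the others. Jaml, a junctional adhesion molecule of leukocytes, read 2.10 and 2.53 in animal 6. Bckdk, the kinase that restrains branched-chain amino acid oxidation, read -2.24 and -0.98 in animal 2 and 2.15 in animal 5. Ndufc2, Antkmt and Chic2 completed the 10 genes with the widest spread between animals against the discrepancy of an animal's arrays; Ndufc2 reached 8.19 and 2.98 in animal 1, Antkmt -3.38 and -2.85 in animal 6 (and 8.18 on the single array of animal 5, which did not enter this ranking), and Chic2 4.63 and 0.81 in animal 6.

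**Figure D3:**
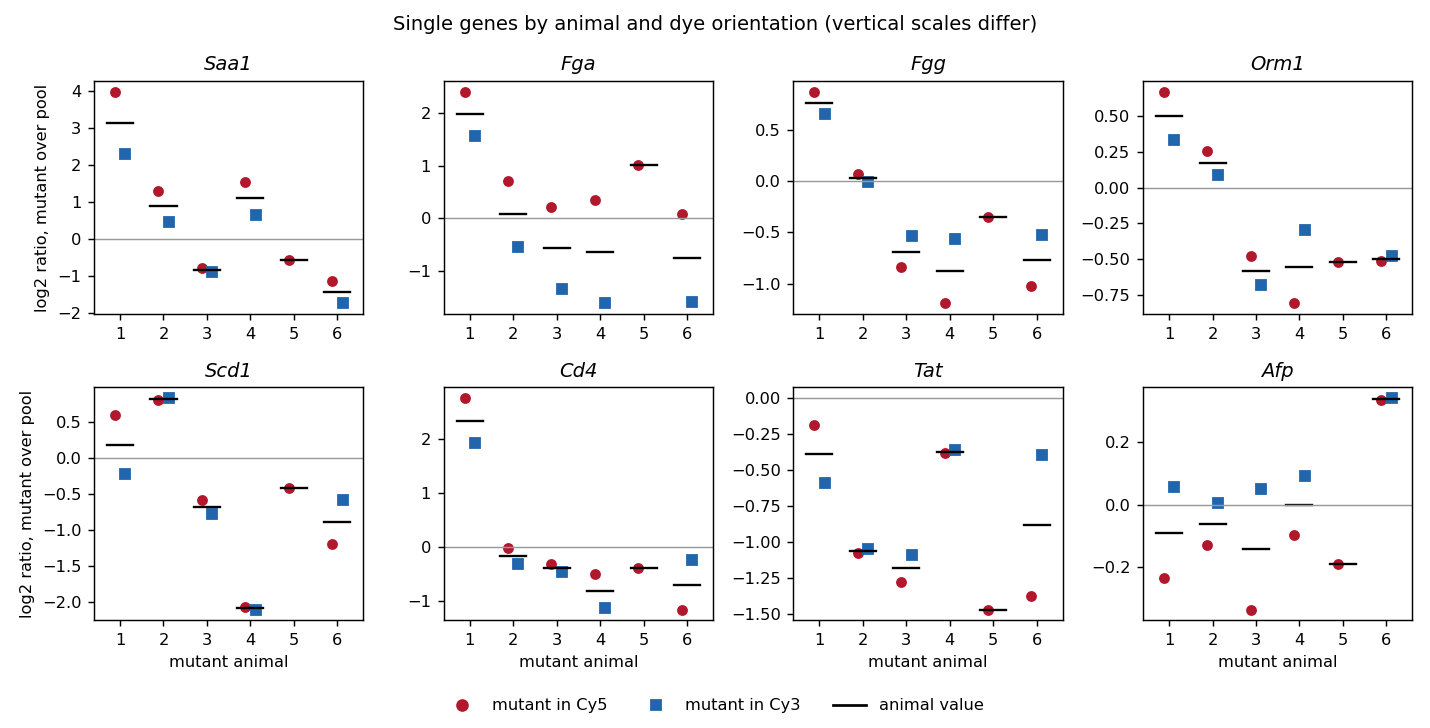
Log2 ratio of mutant over pool (vertical axes, with scales that differ) in each of 6 animals (horizontal axes) for Saa1, the fibrinogen chains Fga and Fgg, Orm1, Scd1, Cd4, Tat and Afp. Circles are arrays with the mutant in Cy5, squares those with the mutant in Cy3, and bars the animal's value; animal 1 lies highest for Saa1, Fga, Fgg, Orm1 and Cd4, and animal 4 lowest for Scd1 on both of its arrays.

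Hepatocyte groups, and some lists that are not specific to the liver, differed from the bulk of features in how far animals and orientations disagreed. For each feature with all 10 paired arrays, the SD of the animals' values was set beside the discrepancy between an animal's arrays (root mean square of their difference divided by 2, after removal of the mean dye difference). Over all features the medians were 0.27 between animals and 0.30 between orientations. They were 0.44 and 0.21 for hepatocyte plasma proteins, 0.40 and 0.22 for P450 and conjugation enzymes, 0.48 and 0.21 for hepatocyte markers, and 0.33 and 0.21 for ribosomal proteins. Erythroid markers gave 0.35 and 0.22, and lymphocyte markers 0.45 and 0.35. For cholangiocyte markers the medians were 0.26 and 0.45, and for exocrine pancreas markers 0.24 and 0.34. Turning the Cy3 arrays exchanges these quantities. Of 8374 named genes on those arrays, 686 had a discrepancy under 0.5 times the SD between animals as deposited, and 1086 would have it with the Cy3 arrays turned. After the mean of each orientation was removed, the 2 arrays of an animal correlated over features at -0.15, -0.07, -0.03, 0.05 and -0.16 in animals 1, 2, 3, 4 and 6. Over the bulk of features the arrays of an animal therefore did not resemble each other, as deposited.

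**Figure D4:**
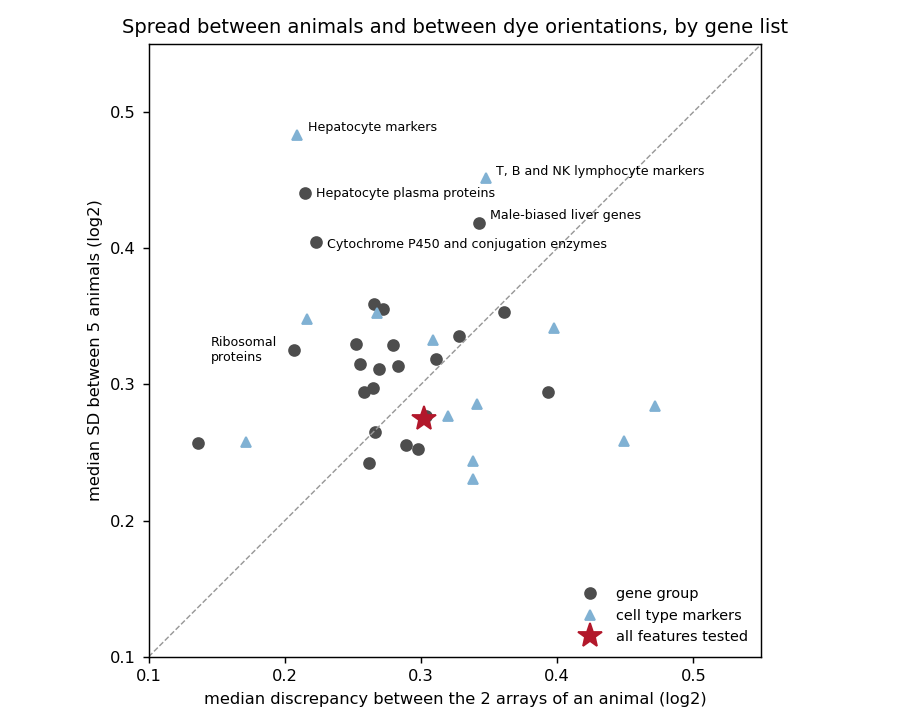
For each gene list, the median SD between 5 animals (vertical axis, log2) against the median discrepancy between the 2 arrays of an animal (horizontal axis, log2), with equality dashed. Hepatocyte markers (0.48 against 0.21) and hepatocyte plasma proteins (0.44 against 0.21) lie far above the line, and all features tested (0.27 against 0.30) slightly below it.

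The dye orientations differed in many features. In limma on the difference between the Cy5 and the Cy3 array of each of 5 animals, divided by 2, 1491 of 16396 features (9.09%) passed at an adjusted p under 0.05. Of these, 1396 were higher and 95 lower with the mutant in Cy5, and 1467 had the same sign in all 5 animals. Over all features, by contrast, the median of this value was -0.09, on the lower side. The median size of the features that passed was 0.72 log2 units. Among members of the lists that passed, Irf9, a subunit of the interferon-stimulated transcription factor, ran from 0.70 to 1.70 on the Cy5 arrays and from -1.32 to -0.16 on the Cy3 arrays, with no overlap (adjusted p of 0.012). Prtn3, a neutrophil protease, ran from 0.36 to 3.27 and from -0.82 to -0.01 (adjusted p of 0.036), and Cyp17a1 passed as well (adjusted p of 0.022). Hepatocyte plasma proteins had 7 of 37 members higher (18.9%), and P450 and conjugation enzymes 6 of 32 (18.8%), while ribosomal proteins had 3 of 57 (5.26%) and Kupffer cell markers 0 of 9.

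The genes with the largest dye differences by size did not pass, with 1 exception. Those on the higher side, Cdc42bpb, Tor2a, Fbln5, Hhipl2 and Gsn, each held a value beyond 10 on 1 or 2 arrays. Fbln5, for example, read 16.37 and 17.38 on 2 Cy5 arrays and between -0.36 and 0.77 on the other 4. On the lower side they were Pik3cd, Fkbp11, Myl4, S100a6 and Nxnl2, of which Nxnl2 passed (limma adjusted p of 0.045). Over 17037 features the means of both orientations correlated at a Spearman coefficient of -0.41, a description of features on shared arrays, and 69.5% of features had means of opposite sign. Of the hepatocyte plasma proteins 14 of 37 did so.

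**Figure D5:**
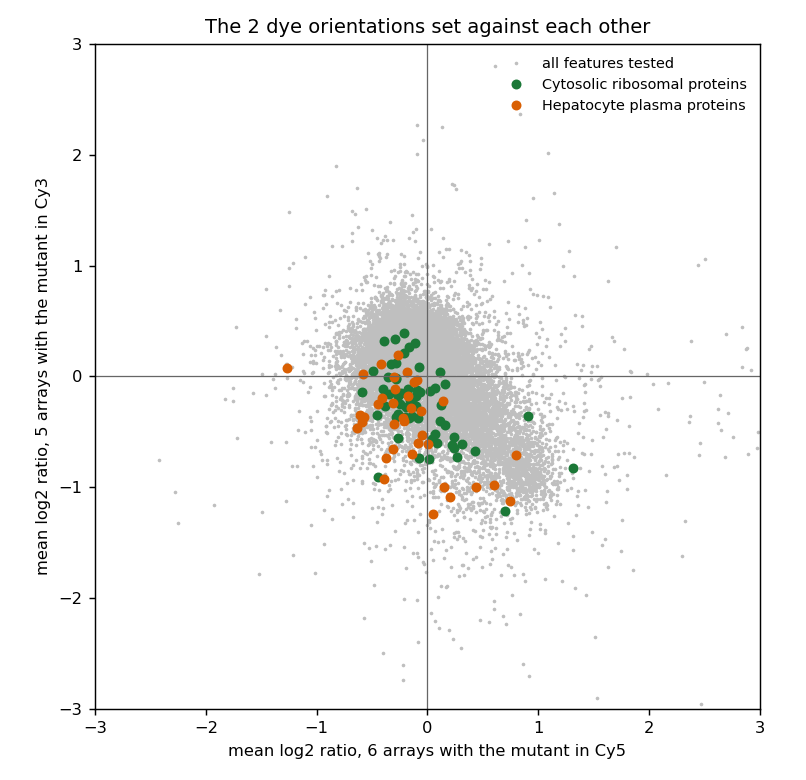
Mean log2 ratio of each feature over the 5 arrays with the mutant in Cy3 (vertical axis) against its mean over the 6 arrays with the mutant in Cy5 (horizontal axis), for 16875 features within 3 of 0 on both axes (162 lie outside). The bulk of features (grey) runs from upper left to lower right, with a Spearman coefficient of -0.41. Below 0 on both axes lie 23 of 37 hepatocyte plasma proteins (orange) and 30 of 60 ribosomal proteins (green), beside 14.9% of all features tested.

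Row names were checked through probes that name the same gene. Over 5055 such pairs the mean over animals, as deposited, correlated at 0.05, more than at any of the other row offsets tried among 121, which gave -0.03 to 0.04. The dye difference correlated at 0.00 as named, the Cy5 arrays alone at 0.00 (0.05 at their best offset, 34 rows away) and the Cy3 arrays alone at 0.04 (0.05 at their best, 19 rows away). Unrelated offsets thus reached values as high in either orientation, and the agreement of probes of a gene was weak.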

How the data were processed

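Per the labels, mutant and pool cDNA were labelled with Cy3 and Cy5 and hybridised to cDNA arrays. The authors deposited log2 ratios; no source used here names the background correction, normalization, filters or genome build, and base 2 is itself an inference from the size of the values. No column was left unmapped. Depth does not apply; the number of arrays limits precision. Of 20794 probes, 12771 had 1 symbol (9030 genes), 0 several and 8023 none in the platform annotation; all Entrez IDs were found in RefSeq, and 0 symbols changed.

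An animal's arrays were averaged first. Animal 5 had a Cy5 array alone, so its values keep any dye difference that this averaging cancels in the other animals. Means were tested against 0 with limma 3.58.1 in R 4.3.3 (lmFit, eBayes, two-sided, values in at least 4 of 6 animals), as was the dye difference of an animal divided by 2; an F-test compared animals with dye as covariate. Animals are separate mice; the 2 arrays of an animal are technical repeats. The scripts were tested on simulated data. Pairing came from the mouse identities in the labels. Gene lists, members and rules were chosen with earlier results of these data known. Named were the albumin family, the up to 10 lowest and highest genes of 1 sign on all 11 arrays, the 5 smallest p, up to 4 smallest p per list, the 10 widest between animals, the 5 largest dye differences each way, and up to 4 leading members of a list that swung in 1 animal; others were named after their values were seen. Gc had no named probe. Alternatives are in the closing section.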

Additional observations from a re-analysis of the deposited data

Results flagged for a closer look

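Of 76 sets of animal values examined, 11 had 1 animal far from the other 5. In sets chosen without regard to spread, chance gives about 1 in 20; that rate does not apply to these sets, since some genes, among them Ndufc2, Antkmt, Gpr19 and Cd4, were named for their spread between animals. Afp had 0.34 in animal 6 against -0.19 to 0.00 in the others. Chtop had -1.56 in animal 5, on a single array, against -0.65 to -0.48, and Alcam -0.81 in animal 3 against -0.57 to -0.44. Ndufc2 had 5.58 in animal 1 against -1.40 to 0.47, and Cd4 had 2.34 in animal 1 against -0.82 to -0.17. Antkmt had 8.18 in animal 5, on a single array, against -3.12 to 0.59, and Gpr19 had 3.08 in animal 3 against -0.33 to 0.72. Hp had -8.57 in animal 4 against -0.07 to 1.25, the mean of arrays at -0.23 and -16.90. Lcn2 had -1.45 in animal 5, again on a single array, against 0.04 to 0.53, and Il1rn had 0.57 in animal 4 against -0.27 to -0.03. The median of the cholangiocyte markers was -0.087 in animal 3 against 0.05 to 0.07 in the others. The cause of these values was not tested.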

How the results depend on the processing

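The count of 0 features against the pool stayed 0 under each alternative that used both orientations as deposited, including each animal left out in turn (range 0 to 0; 943 to 1495 features at an unadjusted p under 0.05). At an unadjusted p under 0.05 there were 1321 features, but 463 with trend and robust empirical Bayes and 1754 with a dye term and the animal as random block. The count at an adjusted p under 0.05 was 1764 with the Cy3 arrays turned in sign, 1106 with the Cy5 arrays alone and 699 with the Cy3 arrays alone. The dye orientation gave 1491 calls with the animal as replicate block and 2328 with no replicate block; leaving out 1 animal gave 638 (without animal 4) to 2407 (without animal 1), with 786 without animal 3 and 854 without animal 2. Differences between animals gave 0 calls, or 1 with the Cy3 arrays turned, and 0 to 0 with an animal left out. Of the comparisons of list medians with their alternatives, 42 of 648 moved by more than the SD between animals, most of them with the Cy3 arrays turned or with 1 orientation alone. The cause of these changes was not tested. With no wild-type animal on its own array and 6 animals, small differences could not be resolved. The direction of the ratios is not stated, and every direction would turn if the ratios were pool over mutant.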
